A study of Mus musculus with 8 samples.

Results

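Glucose enters heart cells through transporters, is phosphorylated by hexokinases and is split to pyruvate by the enzymes of glycolysis. Pyruvate is then either reduced to lactate and exported, or passed to the mitochondria by the pyruvate dehydrogenase complex, which pyruvate dehydrogenase kinases switch off. Many of these genes are targets of hypoxia-inducible factors, transcription factors whose alpha subunits are marked for destruction by oxygen-dependent prolyl hydroxylases, and the fetal heart, which develops in low oxygen, relies on glycolysis more than the adult heart does. A listed set of 36 genes of glucose uptake, glycolysis, pyruvate handling and the hypoxia response was examined here in hearts with a hypomorphic Lsd1. The genes were listed by name and role. Of the 36 genes, 32 had at least 1 probe set annotated to them alone, with 67 probe sets in all, out of 18193 genes and 45101 probe sets. A probe set combines several short probes against one transcript into a single level. *Gpi1*, *Eno1* and *Pfkfb1* were not named in the annotation used here, and *Gapdh* was read only through its control probe sets.

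The study asked how hearts differ when Lsd1, a histone demethylase encoded by *Kdm1a* (*Aof2*), carries the point mutations of the 2lox allele. Hearts of 3 2lox/2lox and 5 wild-type mouse embryos were taken at E18.5 and profiled on Affymetrix Mouse430 arrays, 1 heart to an array. The 2lox allele is the floxed allele before recombination, so a mutated Lsd1 protein is still made, although the sample labels call these hearts a knock-out. The study calls the embryos littermates, but the labels give neither their sex nor which of them shared a litter. The values are log2 levels that the authors had normalized, and a gene is represented by its brightest probe set. Its level does not measure the amount of one gene against another. In ratios of gene pairs only the difference between groups is read, and in sums of markers the bright genes weigh most.

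*Kdm1a* itself was read at 9.44, 9.53 and 9.55 in 2lox/2lox hearts, and at 10.36, 10.34, 10.29, 10.32 and 10.26 in wild-type hearts. The groups did not overlap, and its log2 fold change was -0.81 ± 0.06 (SE, adjusted p = 0.000515 by limma). The summed cardiomyocyte markers (10 of 10 measured) lay between 115000 and 119000 in 2lox/2lox hearts and between 115000 and 118000 in wild-type hearts on the linear scale, so both groups were read as heart. In whole hearts, fewer cells of a type and less RNA per cell cannot be told apart.

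None of the 32 measured genes passed an adjusted p of 0.05 between 2lox/2lox and wild-type hearts (limma, Benjamini-Hochberg over all probe sets), where 0.0798% of all probe sets did. At an unadjusted p under 0.05, 3 of the 32 were higher in 2lox/2lox hearts, against a background of 5.82% of genes, and 0 were lower, against 4.41% of genes. These 3 were *Hk2*, *Slc16a3* and *Egln1*. The fold change was positive for 27 of the 32 genes, a sign that 48.0% of all genes had, and the median log2 fold change was 0.16 beside 0.00 over all genes. With a covariate for how the *Actb* control probes differ between the 3′ and the 5′ end, a sign of RNA quality described further on, 22 were positive and the median was 0.06, and with the *Actb* and *Gapdh* difference 21 were positive and the median was 0.04. Single values ran between -0.30 for *Aldoc* and 0.34 for *Slc16a3*, that is, between 0.812-fold and 1.27-fold. The hearts limited what could be seen, since the median SE of a gene was 0.11, but for 11 genes the 95% interval of the log2 fold change lay within 0.3 of 0 on either side. The shift was carried unevenly by the hearts. The level was highest in 2lox/2lox heart 2 for 18 of the 32 genes and lowest in wild-type heart 4 for 25 of them, and without 2lox/2lox heart 2 no gene kept an unadjusted p under 0.05 and the median was 0.10.

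**Figure D1:**
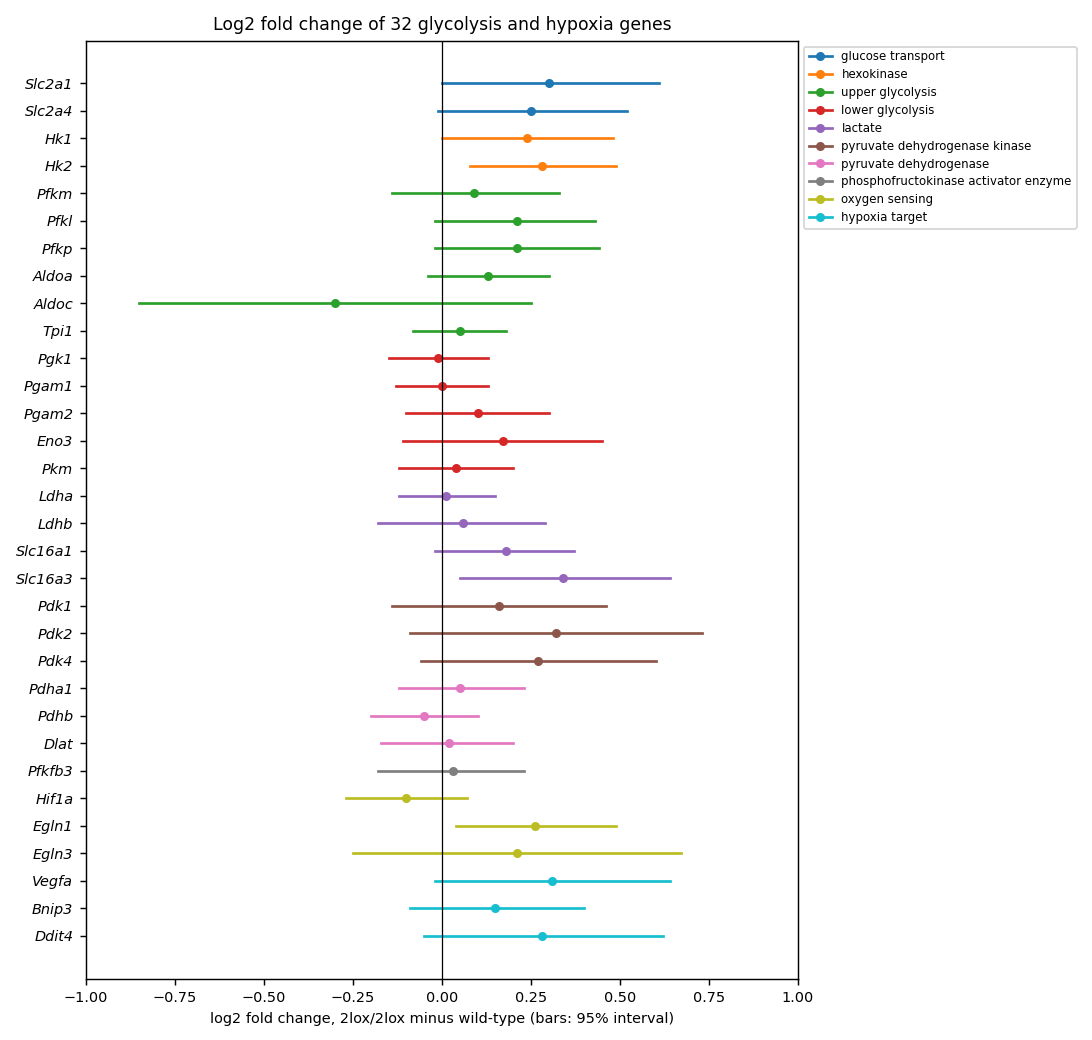
Log2 fold change of each of the 32 measured genes, 2lox/2lox minus wild-type, with its 95% interval, coloured by role. Points lie to the right of 0 for 27 genes, and the intervals of *Hk2*, *Slc16a3* and *Egln1* lie clear of 0 before adjustment.

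The promoters of these genes are shown because hypoxia-inducible factors bind a short element whose core is ACGTG or GCGTG. RefSeq promoter windows (GRCm38.p6) of 300 bases, 250 before and 50 after the transcription start, were searched for this core on both strands, where it reads CACGT or CACGC on the other strand. Of the 36 genes, 35 had a window, and *Slc2a4* had none. The core was found in at least 1 window of 31 of the 35 genes (88.6%), beside 59.3% of the 14453 genes with a probe set of their own and a window, and beside 46.7% of the 27025 genes of the table. By window the shares were 73.6% of 53, 54.6% of the 18110 of genes with a probe set of their own, and 43.8% of all 32851. The median GC content of these windows was 61.0%, 58.3% and 52.7%. Of other genes of these pathways, described further on, 86.7% of 30 hypoxia response genes and 70.6% of 34 glycolysis and pyruvate genes held the core. The windows of *Dlat*, *Gpi1*, *Pgam2* and *Tpi1* held no such letters. The share over the members is a description of letters, and the core contains a CG pair, which GC-rich windows hold more often. Stretches of 100 bases before the start, the stretch with most matches in each gene, are given 5′ to 3′ on the gene's strand with the core in capitals. The first 4 belong to genes with log2 fold changes between 0.26 and 0.34 (*Slc2a1*, *Hk2*, *Slc16a3* and *Egln1*) and the last 3 to genes close to 0 or below it (*Ldha*, *Pgk1* and *Hif1a*).
Slc2a1: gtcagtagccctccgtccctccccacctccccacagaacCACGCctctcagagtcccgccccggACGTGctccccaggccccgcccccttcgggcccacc
Hk2: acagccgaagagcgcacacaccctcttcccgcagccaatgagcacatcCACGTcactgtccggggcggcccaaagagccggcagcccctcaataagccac
Slc16a3: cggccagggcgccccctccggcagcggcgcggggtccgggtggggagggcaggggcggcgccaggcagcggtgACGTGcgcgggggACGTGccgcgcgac
Egln1: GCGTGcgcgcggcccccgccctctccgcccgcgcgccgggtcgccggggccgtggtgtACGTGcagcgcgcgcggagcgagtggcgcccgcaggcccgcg
Ldha: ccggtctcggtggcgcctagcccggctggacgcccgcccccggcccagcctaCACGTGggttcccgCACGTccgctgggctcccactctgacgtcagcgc
Pgk1: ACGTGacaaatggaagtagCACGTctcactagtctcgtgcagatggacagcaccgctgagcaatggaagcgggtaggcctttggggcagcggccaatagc
Hif1a: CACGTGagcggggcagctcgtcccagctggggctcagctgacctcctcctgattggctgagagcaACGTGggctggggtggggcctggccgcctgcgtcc
These stretches lie at chr4:119108645-119108744 (*Slc2a1*, plus strand), chr6:82774455-82774554 (*Hk2*, minus strand), chr11:120948967-120949066 (*Slc16a3*, plus strand), chr8:124949281-124949380 (*Egln1*, minus strand), chr7:46845704-46845803 (*Ldha*, plus strand), chrX:106186950-106187049 (*Pgk1*, plus strand) and chr12:73907732-73907831 (*Hif1a*, plus strand) of GRCm38.p6. In *Ldha* and *Hif1a* the palindrome CACGTG counts once on each strand, so that their 3 matches overlap in part. Both sets of genes carried the core, and the number of matches in a stretch was 1 or 2 in the first set and 2 or 3 in the second.

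The genes of glucose uptake and hexokinase had log2 fold changes between 0.24 and 0.30, of which those of *Slc2a1*, *Hk1* and *Hk2* leaned on 2lox/2lox heart 2. *Slc2a1*, the glucose transporter GLUT1 that predominates in the fetal heart, was read at 11.79, 12.08 and 11.57 in 2lox/2lox hearts, and at 11.52, 11.73, 11.35, 11.70 and 11.24 in wild-type hearts. The ranges overlapped, because wild-type hearts 2 and 4 lay above 2lox/2lox heart 3. *Slc2a1* lies on chromosome 4, as *Kdm1a* does, and the part of sequence linked to the 2lox allele in its values was not tested. The log2 fold change was 0.30 ± 0.14 (SE, 1.23-fold, unadjusted p = 0.0504, limma adjusted p = 0.459), and it was 0.17 without 2lox/2lox heart 2. All of its probe sets pointed the same way, and the dimmest of the 3 was furthest apart, at 10.27, 10.50 and 9.90 in 2lox/2lox hearts and 9.81, 9.76, 9.44, 9.84 and 9.42 in wild-type hearts. In that probe set the groups did not overlap (0.57 ± 0.14, 1.48-fold, limma adjusted p = 0.234). It passed when 2lox/2lox heart 3 was left out, at 0.73 and adjusted p = 0.0355, a setting in which 1.77% of all probe sets passed, while its adjusted p was at least 0.158 under the other alternatives run. *Slc2a4*, which encodes the insulin-responsive transporter GLUT4, had a log2 fold change of 0.25 ± 0.12 (adjusted p = 0.487), and the ratio of *Slc2a1* to *Slc2a4* differed by 0.05 on the log2 scale (exact two-sided permutation p = 0.839 over 56 assignments).

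*Hk2*, the hexokinase typical of insulin-sensitive muscle, was read at 10.15, 10.43 and 10.07 in 2lox/2lox hearts, and at 10.01, 9.90, 9.98, 9.76 and 10.01 in wild-type hearts. It was the only one of the 32 genes whose 2lox/2lox hearts all lay above all wild-type hearts, a pattern that 3.16% of all genes had, and no gene had the opposite pattern, which 2.81% of genes had. The nearest values, 10.07 and 10.01, differed by less than the spread within either group. Its log2 fold change of 0.28 ± 0.09 (1.22-fold, unadjusted p = 0.0115) gave the lowest adjusted p of the 32 genes, 0.317 by limma, and was 0.18 without 2lox/2lox heart 2. *Hk1*, the hexokinase found in most tissues, had levels of 11.21, 11.36 and 10.87 in 2lox/2lox hearts, and of 10.84, 10.99, 11.03, 10.74 and 10.93 in wild-type hearts. Hearts 1 and 2 of the 2lox/2lox group stood above every wild-type heart and heart 3 among them (0.24 ± 0.11, limma adjusted p = 0.463). Leaving out 2lox/2lox heart 2 gave 0.14, leaving out heart 3 gave 0.38, and the fit gave 0.04 with the *Actb* covariate. The *Hk2* to *Hk1* ratio differed by 0.04 (exact two-sided permutation p = 0.607).

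**Figure D2:**
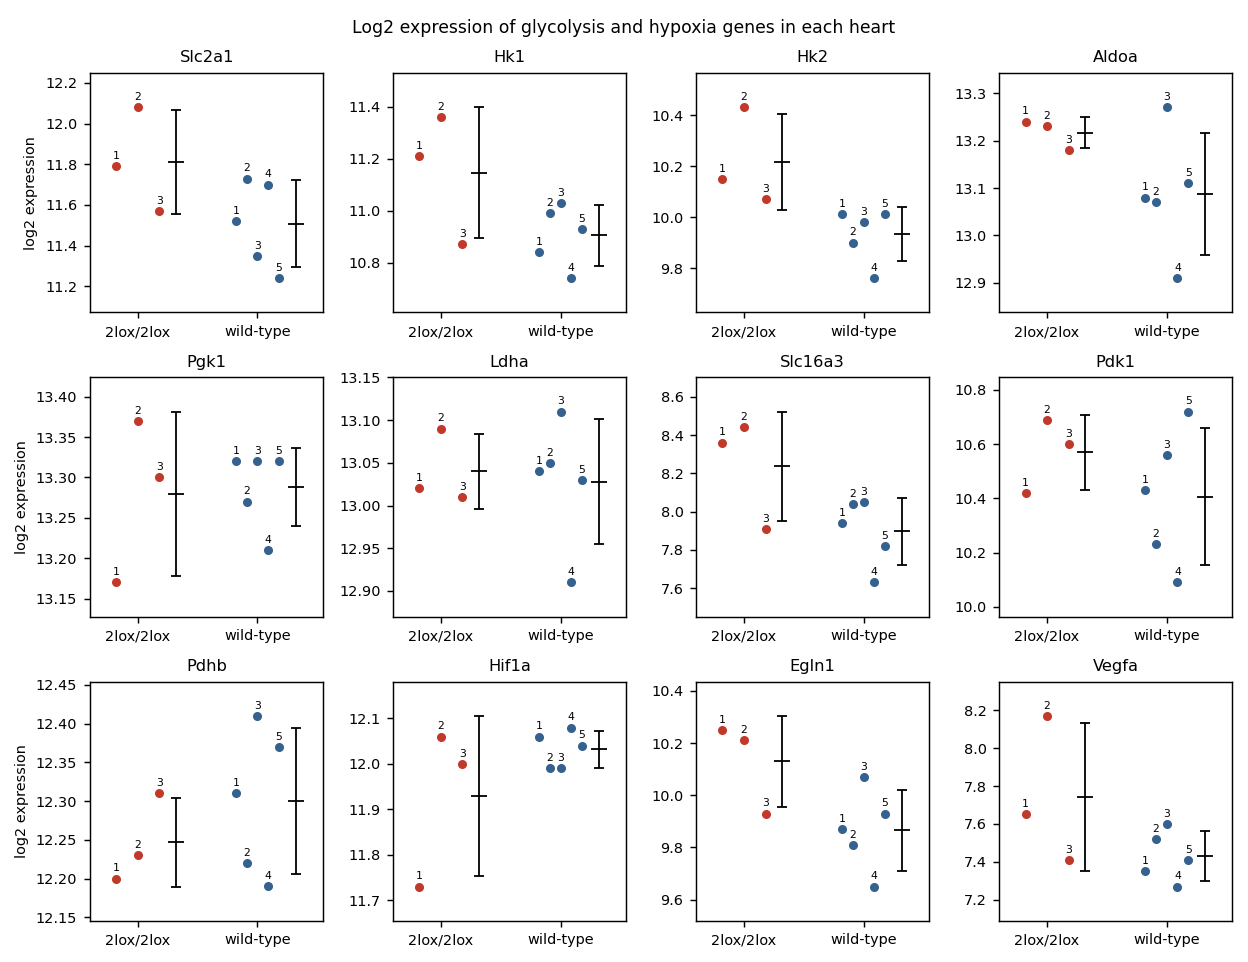
Log2 expression of 12 of the genes in every heart, 2lox/2lox left and wild-type right in each panel, with the heart's number above its point and the group mean ± SD beside it. *Hk2* is the panel without overlap, heart 2 is the top 2lox/2lox point in most panels, and wild-type heart 4 is the lowest wild-type point for *Hk1*, *Hk2*, *Aldoa*, *Pgk1*, *Ldha*, *Slc16a3*, *Pdk1*, *Pdhb*, *Egln1* and *Vegfa*.

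Before the split into triose phosphates, the 3 phosphofructokinase subunits, which make up the committed step, had log2 fold changes of 0.09 (*Pfkm*, the muscle form), 0.21 (*Pfkl*, the liver form) and 0.21 (*Pfkp*, the platelet form). *Aldoa*, the aldolase of muscle, was read at 13.24, 13.23 and 13.18 in 2lox/2lox hearts, and at 13.08, 13.07, 13.27, 12.91 and 13.11 in wild-type hearts. Apart from wild-type heart 3, which was the highest of all, every wild-type heart lay below the 2lox/2lox hearts (0.13 ± 0.08, limma adjusted p = 0.595). Dimmer probe sets of *Aldoa* gave 0.17, 0.18, 0.21 and -0.12, and those of *Pfkl* gave 0.05 and 0.16. *Aldoc*, the brain form, gave the lowest value of the 32 genes at -0.30 ± 0.25 (adjusted p = 0.736), and its wild-type hearts alone spread between 7.04 and 8.42. Leaving out wild-type heart 4 gave -0.49, and leaving out heart 3 gave -0.15. *Tpi1*, which interconverts the triose phosphates, had 0.05 ± 0.06.

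The last steps to pyruvate had narrow intervals for *Pgk1*, *Pgam1* and *Pkm*. *Pgk1*, which makes the first ATP of the pathway, was read at 13.17, 13.37 and 13.30 in 2lox/2lox hearts, and at 13.32, 13.27, 13.32, 13.21 and 13.32 in wild-type hearts. The 2lox/2lox hearts enclosed the wild-type range, and the log2 fold change was -0.01 with a 95% interval from -0.15 to 0.13. *Pgam1*, the phosphoglycerate mutase of most tissues, had 0.00 (interval from -0.13 to 0.13), and *Pkm*, a pyruvate kinase, had 0.04 (interval from -0.12 to 0.20). The muscle forms *Pgam2* (0.10 ± 0.09) and *Eno3* (0.17 ± 0.13), a mutase and an enolase, are also made in skeletal muscle. The summed skeletal muscle markers (21 of 21 measured, 3 of them below the lower quartile of all values) lay between 13900 and 14200 in 2lox/2lox hearts and between 7620 and 12300 in wild-type hearts. Bright members weigh most in that sum, *Ckm* (log2 fold change 1.14, limma adjusted p = 0.349) among them, while 7 of the 21 had negative fold changes, *Myh3* with -0.42 among them, and the median was 0.07. *Tnni2* alone passed the adjusted threshold (log2 fold change 1.32, limma adjusted p = 0.024). Their part in *Pgam2* and *Eno3* was not tested.

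*Gapdh*, the oxidizing enzyme of the pathway, is a loading standard of the array and served as the reference gene for RT-PCR in the study. Its 3′ control probe set was read at 14.04, 14.06 and 14.00 in 2lox/2lox hearts, and at 14.01, 14.04, 14.02, 13.95 and 14.01 in wild-type hearts. Its 5′ control probe set was read at 13.82, 13.84 and 13.90 in 2lox/2lox hearts, and at 13.94, 13.95, 13.94, 13.87 and 13.95 in wild-type hearts. The log2 differences were 0.03 at the 3′ end, -0.02 in the middle and -0.07 at the 5′ end, so the sign depended on which end was read.

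The lactate genes gave values both near 0 and further out. *Ldha*, the subunit of lactate dehydrogenase that favours lactate, was read at 13.02, 13.09 and 13.01 in 2lox/2lox hearts, and at 13.04, 13.05, 13.11, 12.91 and 13.03 in wild-type hearts. The 2lox/2lox hearts lay within the wild-type range (0.01, 95% interval from -0.12 to 0.15), and *Ldhb*, the heart subunit, gave 0.06 (interval from -0.18 to 0.29). The ratio of *Ldha* to *Ldhb* differed by -0.04 (exact two-sided permutation p = 0.607). The lactate carriers lay further out. *Slc16a3*, the exporter MCT4 of glycolytic cells, was read at 8.36, 8.44 and 7.91 in 2lox/2lox hearts, and at 7.94, 8.04, 8.05, 7.63 and 7.82 in wild-type hearts. Hearts 1 and 2 of the 2lox/2lox group lay above all wild-type hearts, and heart 3 lay within them. Its log2 fold change of 0.34 ± 0.13 was the highest of the 32 genes (1.27-fold, unadjusted p = 0.0271, limma adjusted p = 0.385), and *Slc16a1*, which encodes MCT1, gave 0.18 ± 0.09 (adjusted p = 0.511). Macrophages also make *Slc16a3*, and all 14 of the 14 myeloid markers had positive fold changes (median 0.35), against 48.0% of all genes. At an unadjusted p under 0.05 by limma, 9 of the 14 were higher, against 5.82% of all genes, and none passed the adjusted threshold. The summed myeloid markers, 1 of them below the lower quartile of all values, lay between 2230 and 2930 in 2lox/2lox hearts and between 1720 and 2210 in wild-type hearts. They were highest in 2lox/2lox heart 3, where *Slc16a3* was lowest among the 2lox/2lox hearts, and their part in *Slc16a3* was not tested.

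Among the genes that decide the fate of pyruvate, the listed subunits of the pyruvate dehydrogenase complex had log2 fold changes between -0.05 and 0.05. The listed kinases had values between 0.16 and 0.32, a difference that was not tested. Dimmer probe sets gave -0.02, 0.07 and 0.22 for *Pdk1*, -0.30 for *Pdha1*, 0.14 for *Pdhb*, and 0.04 and -0.06 for *Dlat*. Outside the list, the subunit genes *Dld* (-0.21 ± 0.10) and *Pdhx* (-0.17 ± 0.10) and the kinase gene *Pdk3* (-0.26 ± 0.08) had negative values. *Pdhb*, its E1 beta subunit, was read at 12.20, 12.23 and 12.31 in 2lox/2lox hearts, and at 12.31, 12.22, 12.41, 12.19 and 12.37 in wild-type hearts, with full overlap and a log2 fold change of -0.05 ± 0.07. *Pdha1* (E1 alpha) gave 0.05 ± 0.08 and *Dlat* (E2) gave 0.02 ± 0.08. *Pdk1*, the kinase most tied to hypoxia, was read at 10.42, 10.69 and 10.60 in 2lox/2lox hearts, and at 10.43, 10.23, 10.56, 10.09 and 10.72 in wild-type hearts. Wild-type heart 5 was the highest of all, and the spread among the wild-type hearts (SD 0.26) exceeded the difference of 0.16 ± 0.13 (limma adjusted p = 0.737). *Pdk2* (0.32 ± 0.18) and *Pdk4* (0.27 ± 0.15), the forms most responsive to fuel supply in adult heart and muscle, were likewise within the error of these hearts (adjusted p = 0.584 and 0.568), and with the *Actb* covariate they were 0.06 and 0.12. *Pfkfb3*, whose product makes the activator of phosphofructokinase, was dim, at 5.68, 5.46 and 5.82 in 2lox/2lox hearts, and at 5.73, 5.68, 5.71, 5.59 and 5.45 in wild-type hearts. 2lox/2lox heart 3 was the highest of all hearts and the other 2lox/2lox hearts lay within the wild-type range (0.03 ± 0.09, limma adjusted p = 0.957).

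For 11 pairs of related genes, the log2 ratio of the first to the second was compared between groups, so that a shift common to both cancels. No pair passed (exact two-sided permutation test, Benjamini-Hochberg over 11 pairs, adjusted p between 0.742 and 0.839). The groups overlapped in all 11 pairs. The lowest exact p, 0.179, belonged to *Aldoc* over *Aldoa*, which differed by -0.43 between 2lox/2lox and wild-type hearts.

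The oxygen-sensing genes and hypoxia targets showed a pattern of single hearts. *Hif1a*, the oxygen-regulated subunit, was read at 11.73, 12.06 and 12.00 in 2lox/2lox hearts, and at 12.06, 11.99, 11.99, 12.08 and 12.04 in wild-type hearts. Only 2lox/2lox heart 1 lay below the narrow wild-type range (-0.10 ± 0.08, limma adjusted p = 0.709). *Egln1*, the main prolyl hydroxylase that marks Hif1a for destruction, was read at 10.25, 10.21 and 9.93 in 2lox/2lox hearts, and at 9.87, 9.81, 10.07, 9.65 and 9.93 in wild-type hearts. Hearts 1 and 2 of the 2lox/2lox group lay above all wild-type hearts (0.26 ± 0.10, 1.20-fold, unadjusted p = 0.0277, limma adjusted p = 0.386). A dimmer *Egln1* probe set gave 0.16 ± 0.11 (limma adjusted p = 0.648), and 2lox/2lox heart 1 (8.50) lay below wild-type hearts 3 and 5 in it. *Egln3*, a hydroxylase that is itself hypoxia-inducible, had 7.12, 8.11 and 7.34 in 2lox/2lox hearts, against 7.52, 7.26, 7.41, 6.91 and 7.48 in wild-type hearts. Its fold change of 0.21 ± 0.21 turned to -0.08 without 2lox/2lox heart 2. A dimmer *Egln3* probe set gave 0.46 ± 0.18 (limma adjusted p = 0.393), and 0.18 without 2lox/2lox heart 2.

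In their brightest probe sets all 3 hypoxia targets of the set were highest in that same heart. *Vegfa*, the angiogenic growth factor, was read at 7.65, 8.17 and 7.41 in 2lox/2lox hearts, and at 7.35, 7.52, 7.60, 7.27 and 7.41 in wild-type hearts. Its difference of 0.31 ± 0.15 on the log2 scale (limma adjusted p = 0.490) was 0.10 without 2lox/2lox heart 2. A dimmer *Vegfa* probe set gave -0.04, with 7.07 in 2lox/2lox heart 2 and its highest value, 7.16, in wild-type heart 2. *Ddit4*, an inhibitor of mTORC1, had 8.63, 9.36 and 8.62 in 2lox/2lox hearts, against 8.57, 8.65, 8.67, 8.58 and 8.45 in wild-type hearts. Here 2lox/2lox hearts 1 and 3 lay among the wild-type hearts and heart 2 stood apart, with 0.28 ± 0.15 over all hearts and 0.04 without it. *Bnip3*, a mitophagy receptor, was read at 11.81, 12.01 and 11.68 in 2lox/2lox hearts, and at 11.76, 11.68, 11.90, 11.40 and 11.63 in wild-type hearts (0.15 ± 0.11, limma adjusted p = 0.683), with heart 2 again on top and wild-type heart 4 at the bottom.

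For many of the genes the extremes fell on the same hearts. Among all genes, 9.88% were highest in 2lox/2lox heart 2 and 14.4% were lowest in wild-type heart 4, and among the 1458 genes with a mean of at least 10, to which 22 of the 32 belong, the shares were 13.9% and 24.3%. The median difference of the 32 genes from their wild-type mean was 0.11, 0.20 and 0.03 in 2lox/2lox hearts, against 0.02, -0.05, 0.12, -0.16 and 0.07 in the wild-type hearts. So 2lox/2lox hearts 1 and 3 lay within the wild-type range of this median, and 2lox/2lox heart 2 lay above it. Wild-type heart 4 was also the heart with the most erythroid marker signal (summed level of 7 of 11 markers, 1590, against 296 to 764 in the other wild-type hearts and 424 to 1020 in the 2lox/2lox hearts) and was the highest heart for all 7. Of the adipocyte markers (4 of 6 measured), *Fabp4*, which endothelial cells also make, was 8.76 in that heart. It was 10.34 to 11.61 in the other wild-type hearts and 10.70 to 10.97 in the 2lox/2lox hearts. *Cidea* was 5.35 there, against 5.75 to 6.37 in the other wild-type hearts and 5.97 to 6.38 in the 2lox/2lox hearts. *Adipoq* (4.08) and *Ucp1* (4.27) were near the lower quartile of all values, 4.21. In the same heart 7 of 10 cardiomyocyte markers and 5 of 10 endothelial markers were lowest. Their median differences from the wild-type mean were -0.12 and -0.14. The other way, 2 of the 10 cardiomyocyte markers, *Myh6* (13.45) and *Myl7* (13.88), were highest there, and so were 8 of 21 skeletal muscle markers. The part of these cells in the low values of that heart was not tested. Without wild-type heart 4 the median log2 fold change of the 32 genes was 0.09.

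**Figure D3:**
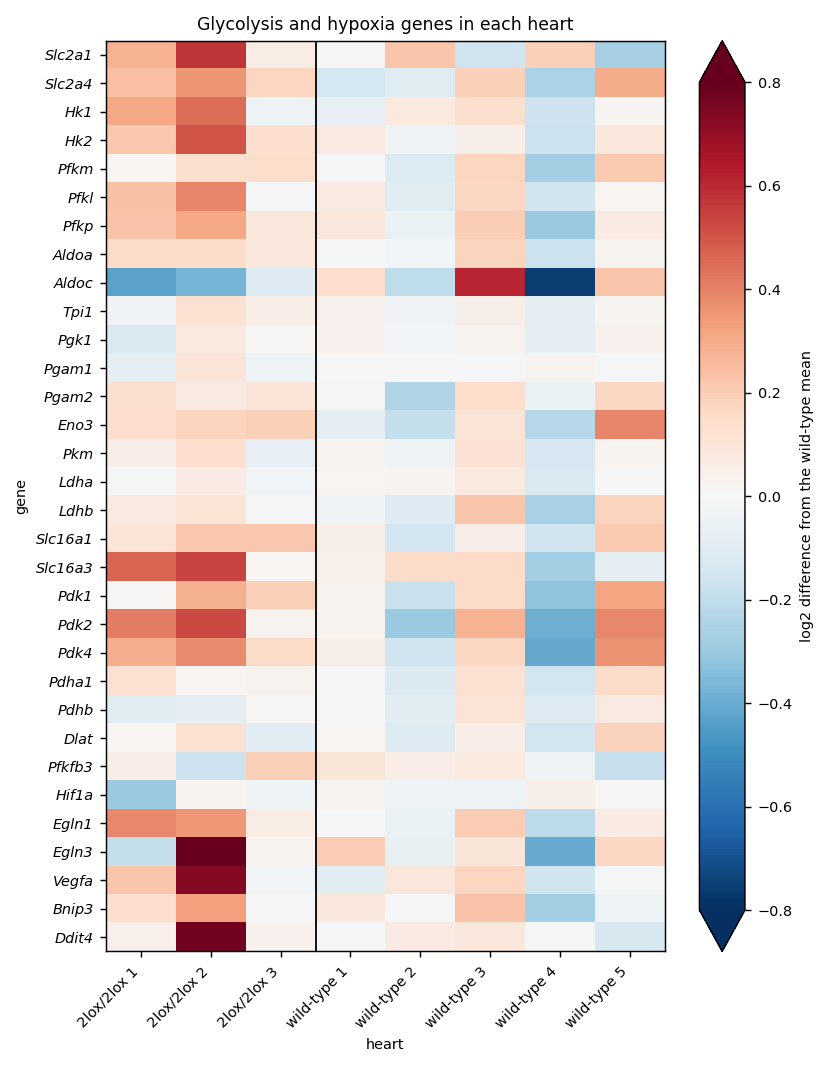
Difference of each of the 32 measured genes (down) from its wild-type mean in each heart (across), on the log2 scale, red above and blue below the mean, with 2lox/2lox hearts left of the line. The column of 2lox/2lox heart 2 holds the highest value of 18 genes and that of wild-type heart 4 the lowest of 25.

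Other genes of the same pathways gave the comparison for this pattern. Of 41 other glycolysis and pyruvate genes, 38 were measured and 0 passed the adjusted threshold. At an unadjusted p under 0.05 by limma, 2 were higher and 3 lower in 2lox/2lox hearts, against 5.82% and 4.41% of all genes. The median log2 fold change of the 38 was -0.03, and 4 of them were highest in 2lox/2lox heart 2 and 8 lowest in wild-type heart 4. *Pdk3*, another pyruvate dehydrogenase kinase, was read at 9.62, 9.88 and 9.97 in 2lox/2lox hearts, and at 10.14, 10.05, 10.07, 10.16 and 10 in wild-type hearts. Its groups did not overlap, a pattern that 2.81% of all genes had in this direction. Its log2 fold change of -0.26 ± 0.08 (limma adjusted p = 0.311) was opposite in sign to those of *Pdk1*, *Pdk2* and *Pdk4*. *Pygb*, a glycogen phosphorylase, gave 0.26 ± 0.09 (adjusted p = 0.318), *Gpd2*, the mitochondrial glycerol phosphate dehydrogenase, -0.16 ± 0.05 (adjusted p = 0.340), and *Hkdc1*, a hexokinase-like enzyme, -0.22 ± 0.08 (adjusted p = 0.353). *Slc2a3*, the transporter GLUT3, was looked at after its values were seen and gave 0.35 ± 0.14 (limma adjusted p = 0.415). *Slc2a3* was read at 9.20, 9.43 and 8.75 in 2lox/2lox hearts, and its log2 fold change was 0.20 without 2lox/2lox heart 2. Macrophages make it too, and the summed myeloid markers were highest in 2lox/2lox heart 3. In that heart *Slc2a3* was lowest among the 2lox/2lox hearts and lay within the wild-type range. The part of these cells in *Slc2a3* was not tested. Of the 8 testis isozymes of glycolysis, 0 passed, with 1 lower at an unadjusted p under 0.05 and a median of -0.07. That gene, the lactate dehydrogenase *Ldhc*, stood at 4.34, 4.49 and 4.52 in 2lox/2lox hearts, and at 4.62, 4.60, 4.57, 4.53 and 4.61 in wild-type hearts, levels close to the lower quartile of all values, 4.21.

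Of 42 other hypoxia response genes, 39 were measured. None passed the adjusted threshold, and the median was 0.06. At an unadjusted p under 0.05 by limma, 5 were higher and 1 lower in 2lox/2lox hearts, against 5.82% and 4.41% of all genes. Here 13 of the 39 were highest in 2lox/2lox heart 2 and 12 lowest in wild-type heart 4. *Angptl4*, an inhibitor of lipoprotein lipase, was read at 7.12, 7.11 and 7.27 in 2lox/2lox hearts, and at 6.82, 7.07, 6.66, 6.64 and 6.83 in wild-type hearts (0.37 ± 0.10, limma adjusted p = 0.25). *Arnt*, the constant partner of Hif1a, was read at 8.35, 8.11 and 8.11 in 2lox/2lox hearts, and at 8.02, 7.96, 7.90, 7.91 and 8.01 in wild-type hearts (0.23 ± 0.07, limma adjusted p = 0.303). *Arnt2*, its paralog, went the other way, at 6.32, 6.04 and 6.01 in 2lox/2lox hearts, and at 6.51, 6.53, 6.34, 6.54 and 6.43 in wild-type hearts (-0.35 ± 0.08, limma adjusted p = 0.224). In all 3 genes the groups did not overlap, a pattern that 3.16% of all genes had upward and 2.81% downward. Without 2lox/2lox heart 2 the log2 fold changes of *Angptl4*, *Arnt* and *Arnt2* were 0.40, 0.27 and -0.30. The vasodilator peptide gene *Adm* gave 0.30 ± 0.10 (adjusted p = 0.330), and 0.22 without that heart.

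Some other hypoxia targets, chosen after their values were seen, were highest in the same heart. *Bhlhe40*, a transcriptional repressor, was read at 8.07, 9.39 and 7.79 in 2lox/2lox hearts, and at 7.84, 7.67, 8.22, 7.39 and 7.92 in wild-type hearts. *Ndrg1*, a stress-response gene, was read at 6.90, 8.15 and 7.37 in 2lox/2lox hearts, and at 7.14, 7.05, 7.53, 6.91 and 7.70 in wild-type hearts. For *Ankrd37* the levels were 5.83, 6.49 and 5.97 in 2lox/2lox hearts, against 5.73, 5.89, 5.91, 5.80 and 5.89 in wild-type hearts. In all 3 genes heart 2 was the highest of the 8 hearts, and without it the log2 fold changes were 0.12, -0.13 and 0.05.

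**Figure D4:**
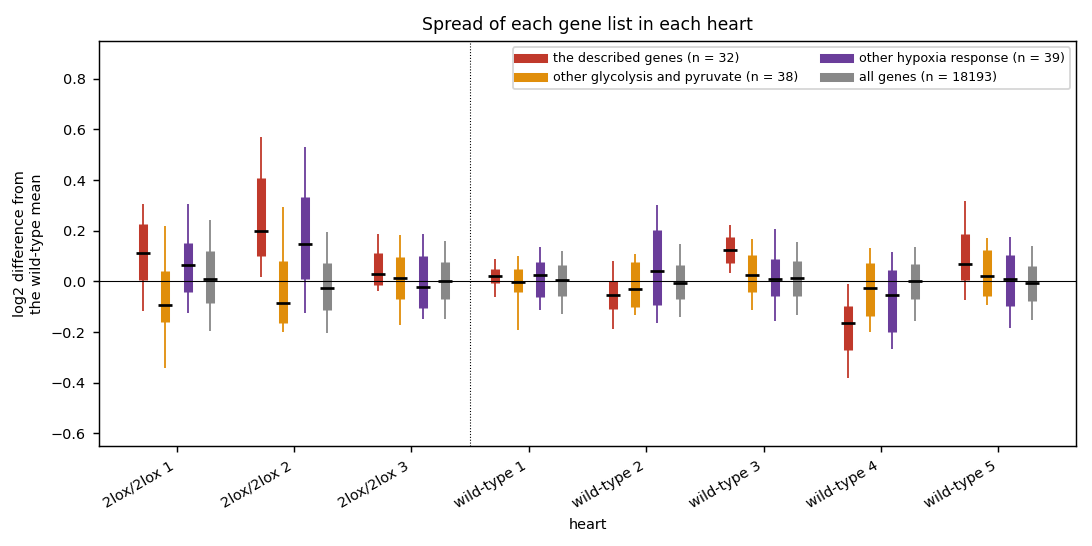
Difference from the wild-type mean in each heart on the log2 scale, for the 32 genes described, 38 other glycolysis and pyruvate genes, 39 other hypoxia response genes and all 18193 genes. Black ticks are medians, thick bars the interquartile range and thin lines the span between the outer deciles, and the red median stands at 0.20 in 2lox/2lox heart 2 and at -0.16 in wild-type heart 4.

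Several genes had a probe set that read them differently. For *Hif1a*, a dimmer probe set was read at 8.18, 8.45 and 9.04 in 2lox/2lox hearts, and at 9.26, 8.96, 8.85, 8.74 and 9.38 in wild-type hearts, which differ by -0.48 ± 0.20 on the log2 scale (limma adjusted p = 0.409) beside -0.10 in the brightest. For *Pfkp*, a second probe set was read at 8.09, 8.37 and 8.87 in 2lox/2lox hearts, and at 8.99, 8.87, 8.81, 8.37 and 9.19 in wild-type hearts (-0.40 ± 0.20), while its brightest gave 0.21 and the dimmest 0.53. For *Pdha1*, the second probe set was read at 10.43, 10.63 and 11.01 in 2lox/2lox hearts, and at 10.94, 10.85, 11.02, 10.90 and 11.21 in wild-type hearts (-0.30 ± 0.13), beside 0.05 in the brightest. In these dimmer probe sets 2lox/2lox hearts 1 and 2 were low and heart 3 lay within the wild-type range, and for *Pfkp* wild-type heart 4 was as low.

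The same split of the 2lox/2lox hearts appeared in the controls that compare the 3′ and the 5′ end of a transcript, a sign of how complete the labelled RNA was. The mean 3′ minus 5′ difference of *Actb* and *Gapdh* was 0.52, 0.50 and 0.33 in 2lox/2lox hearts, against 0.33, 0.34, 0.38, 0.32 and 0.34 in the wild-type hearts. With the *Actb* difference as a covariate, the log2 fold changes of the 3 dimmer probe sets were -0.18 (*Hif1a*), -0.17 (*Pfkp*) and -0.11 (*Pdha1*), that of *Slc16a3* was 0.10, that of *Egln1* 0.08 and that of *Hk2* 0.18. In that fit 0 of the 32 genes had an unadjusted p under 0.05. Over the whole array 17 probe sets passed the adjusted threshold, beside 36 without the covariate. The *Actb* difference alone was 0.82, 0.78 and 0.56 in 2lox/2lox hearts, against 0.57 to 0.67 in wild-type hearts. This covariate overlaps with genotype, so the fit cannot fully separate RNA quality from genotype.

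**Figure D5:**
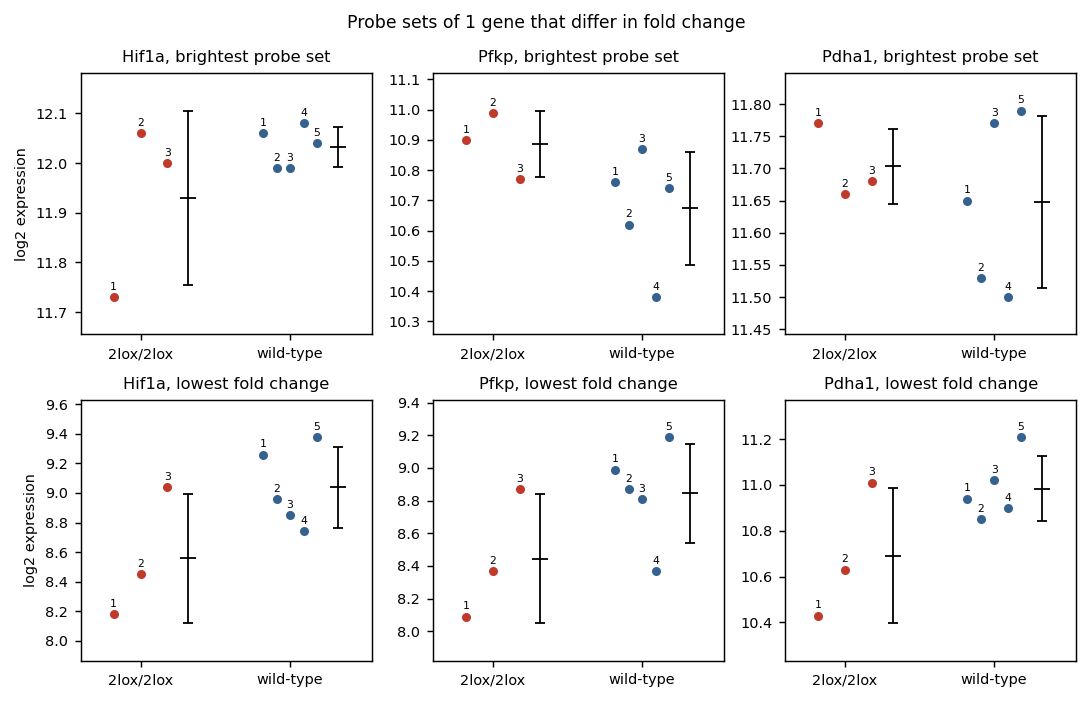
Log2 expression by heart for *Hif1a*, *Pfkp* and *Pdha1* in the brightest probe set (top row) and in the probe set of the same gene with the lowest fold change (bottom row), 2lox/2lox left and wild-type right, with the group mean ± SD. In the bottom row 2lox/2lox hearts 1 and 2 lie low and heart 3 lies with the wild-type hearts.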

How the data were processed

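Deposited data were log2 levels of 45101 Affymetrix Mouse430 probe sets that the authors had normalized before deposit. The sources used here do not give the method of normalization, and the choice would affect dim probe sets most. The values were used as given, since array medians ran between 5.03 and 5.10. The number of arrays, not a depth, limits the precision.

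Probe sets were named from the platform annotation and RefSeq (34958 with 1 gene, 932 with several, 9211 with none). All 8 hearts were fitted in R 4.3.3 with limma 3.58.1 as the difference of 2lox/2lox from wild-type hearts (two-sided), with p-values adjusted over all probe sets by Benjamini-Hochberg and a threshold of 0.05. The brightest probe set named to a gene alone stood for it. Ratios of gene pairs were tested with an exact two-sided permutation test over 56 assignments of hearts.

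The genes, lists and alternatives were chosen with earlier results of these data known. Every listed gene is accounted for, and values by heart are given for genes at an unadjusted p under 0.05, for the gene with the highest mean in each role, and for *Slc2a1*, *Gapdh*, *Ldha*, *Hif1a* and *Vegfa*. Of the other pathway lists up to 4 genes with the smallest p are named. *Ddit4*, *Egln3* and genes marked in the text were added after their values were seen. Markers of endothelial, fibroblast, lung, liver and lymphocyte cells were also read (10, 10, 6, 6 and 7 measured). Of them, 0 passed the adjusted threshold. At an unadjusted p under 0.05 by limma, 2 endothelial markers were higher in 2lox/2lox hearts, and 1 fibroblast marker was higher and 1 lower. None of the lung, liver and lymphocyte markers reached it. Over all genes the shares were 5.82% higher and 4.41% lower. Alternatives were median centring or quantile normalization, robust moderation or an intensity trend, array weights, 2 filters on dim signals, a block for the replicate number, covariates for sex and for 3′ minus 5′ differences, the mean of a gene's probe sets, and each heart left out. The fit was tested on simulated data.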

Additional observations from a re-analysis of the deposited data

How the results depend on the processing

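In its brightest probe set, or in the mean of its probe sets, no gene of the set passed the adjusted threshold under any alternative. Neither did any other pathway gene. None of the 11 ratios passed either, but in their permutation test a single separated pair could not have passed. Of 984 alternative values of single genes and ratios, 944 kept their direction and their side of the threshold and 40 turned, the largest main value that turned being 0.24. The number of the 32 genes at an unadjusted p under 0.05, 3 in the report, was 5 with an intensity trend, 6 with array weights, 7 with the sex score, 0 with the 3′ minus 5′ difference of *Actb* or of *Actb* and *Gapdh*, and between 0 and 9 with 1 heart left out (0 when 2lox/2lox heart 2 was left out, 9 for 2lox/2lox heart 3 or wild-type heart 3, and 7 for wild-type heart 5). The share of all genes at that unadjusted p is not given for each alternative, so these counts cannot be set against the whole array. The median log2 fold change of the 32 genes, 0.16, was 0.04 with the *Actb* and *Gapdh* difference and between 0.09 and 0.19 with 1 heart left out. Over the whole array 36 probe sets passed, 17 with the *Actb* difference, 9 with both, and between 17 and 797 with 1 heart left out (797 when 2lox/2lox heart 3 was left out, 20 for 2lox/2lox heart 1, 17 for wild-type heart 1, and 23 each for wild-type hearts 2, 3 and 4). The cause was not tested.

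Replicate numbers occur in both groups, and the deviations of same-numbered hearts from their group means correlated at 0.0277, -0.07 and -0.1385. Such deviations sum to 0 within a group, so these values cannot show whether same-numbered hearts shared a litter. The replicate block leaves few degrees of freedom among 8 hearts, which makes it harder for a probe set to pass. With the block 0 probe sets of the whole array passed and 0 of the 32 genes. Of these genes, 4 had an unadjusted p under 0.05 by limma (3 higher and 1 lower), and the median of the 32 was 0.13. The share of all genes at that p with the block is not given either. The block turned *Pgam1* (0.00), *Ldha* (-0.03) and *Pfkfb3* (-0.05).

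The other turned log2 values were small. With the *Actb* difference they were -0.05 for *Pkm*, -0.03 for *Ldha*, -0.05 for *Ldhb*, 0.00 for *Pdha1* and -0.07 for *Dlat*. With the *Actb* and *Gapdh* difference they were -0.02 for *Hk1*, 0.01 for *Pgk1*, -0.07 for *Pkm*, -0.03 for *Ldha*, -0.06 for *Ldhb*, -0.01 for *Pdha1*, -0.08 for *Dlat* and -0.02 for *Bnip3*. Quantile normalization gave 0.01 for *Pgk1* and the sex score 0.00 for *Pgam1*. The mean of a gene's probe sets gave -0.12 for *Pdha1*, 0.05 for *Pdhb* and 0.12 for *Egln3* over *Egln1*. With 1 heart left out, the ranges of values that turned were -0.05 to 0.04 for *Pgk1*, -0.06 to 0.04 for *Pgam1*, 0.00 to 0.10 for *Pkm*, -0.02 to 0.03 for *Ldha*, -0.01 to 0.11 for *Ldhb*, -0.03 to 0.07 for *Dlat*, -0.06 to 0.12 for *Pfkfb3* and -0.08 to 0.41 for *Egln3*. For ratios they were -0.31 to 0.21 for *Egln3* over *Egln1*, -0.09 to 0.16 for *Slc2a1* over *Slc2a4* and -0.02 to 0.11 for *Hk2* over *Hk1*. The median SE of 0.11 limited what could be seen, and signal near background limited dim genes such as *Pfkfb3*.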
